A study of Homo sapiens with 2 samples.

Results

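The dual-specificity MAP kinase phosphatase genes DUSP1, DUSP2, DUSP4, DUSP5, DUSP6, DUSP7, DUSP8, DUSP9, DUSP10 and DUSP16 were followed through 2 chromatin peak lists from PLC8024, an established line of human liver cancer cells. The members were all peaks, of any annotation class, whose nearest gene name was one of these 10 symbols. They came to 33 of 29283 peaks in cells exposed to a drug (10 nM, 6 hours), and to 48 of 49854 peaks in control cells. The lists named 18486 genes in all. CUT&Tag, the assay used, uses an antibody to tether a transposase to chromatin, so that DNA is cut and tagged for sequencing near the bound protein or mark. The sources name neither the drug nor the antibody of these 2 libraries, and the title of the study concerns target genes of KIF11, a mitotic kinesin motor. An IgG and a Pol II group also belong to the design and are not analysed here. Each condition had 1 library, so no difference below has a replicate check and no p-value is given, and library and treatment cannot be told apart.

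MAP kinases (ERK, JNK and p38) are switched on by phosphorylation of a threonine and a tyrosine in their activation loop, and the dual-specificity phosphatases remove both phosphates. The nuclear members DUSP1, DUSP2, DUSP4 and DUSP5 are encoded by genes that growth factors and stress induce within a short time. DUSP6, DUSP7 and DUSP9 act on ERK in the cytoplasm, where DUSP6 is a widely used readout of ERK output. DUSP8, DUSP10 and DUSP16 act mainly on JNK and p38.

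The 2 lists differed in length and strength over the whole genome, which sets the scale for the DUSP peaks. The median peak width was 259 bp in the drug list and 345 bp in the control list, and 35.9% of drug peaks and 13.8% of control peaks had the smallest width of 200 bp. Scores are the authors' own, given by their peak caller within each library, and larger scores mark stronger peaks. The median score was 59.0 in the drug list and 80.0 in the control list. Sequencing depth is unknown, so a score is read here only by its place within its own list or beside peaks of like control score. Liver markers did not all carry promoter peaks. Of 14 hepatocyte genes, 5 had a promoter peak in the drug list and 9 in the control list, and ALB, AFP, APOA1, APOB and TTR had none in either. Of 4 epithelial genes 2 had a promoter peak in each list, of 5 fibroblast and endothelial genes 1 in each list, and of 5 blood genes none in either. The fibroblast and endothelial gene differed between the lists. It was COL1A2 in the drug list, with a score of 15, and PDGFRA in the control list, with a score of 120.

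The same 7 of the 10 DUSP genes had a promoter peak in the drug list and in the control list. These were DUSP1, DUSP4 and DUSP5 of the nuclear group, DUSP6, DUSP7 and DUSP9 of the cytoplasmic group, and DUSP10. The DUSP9 peak lay at an inner start site and not at the 5' end of the gene. Over all protein-coding genes, 35.2% had a promoter peak in the drug list and 39.9% in the control list. DUSP16 had its start-site peak in the 5' UTR, so that counting any peak centred within 1 kb of a start site gave 8 of 10 genes in each list, against 40.3% of protein-coding genes in the drug list and 49.4% in the control list. DUSP2 and DUSP8 had no start-site peak in either list.

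Promoter sequences from RefSeq (GRCh38.p14) were matched for 8 of the 10 genes, in 10 promoter windows of 250 bases before the start. DUSP4 and DUSP5 had no matched window, so the motif and base content values below do not cover them. The 4 shown are those of the genes whose promoters hold the cAMP response element (DUSP1, DUSP8) or an ETS motif (DUSP6, DUSP8), and of DUSP2, which like DUSP8 had no start-site peak. All lie on the minus strand, at chr5:172771196-172771445 for DUSP1, chr12:89352502-89352751 for DUSP6, chr2:96145441-96145690 for DUSP2 and chr11:1572272-1572521 for DUSP8. Capitals mark TGACGTCA (the cAMP response element, CRE), TGACG (its core) and CGGAAG (ETS) on either strand.
DUSP1: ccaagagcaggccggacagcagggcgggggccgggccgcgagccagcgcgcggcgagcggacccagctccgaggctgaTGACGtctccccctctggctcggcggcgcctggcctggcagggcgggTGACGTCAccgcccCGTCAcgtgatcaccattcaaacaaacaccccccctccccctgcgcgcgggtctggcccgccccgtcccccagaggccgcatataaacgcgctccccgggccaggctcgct
DUSP6: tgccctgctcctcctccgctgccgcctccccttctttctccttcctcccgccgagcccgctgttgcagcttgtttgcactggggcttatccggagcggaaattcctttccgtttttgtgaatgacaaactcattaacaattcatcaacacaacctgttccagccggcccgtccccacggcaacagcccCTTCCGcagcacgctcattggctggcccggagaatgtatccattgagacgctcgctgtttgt
DUSP2: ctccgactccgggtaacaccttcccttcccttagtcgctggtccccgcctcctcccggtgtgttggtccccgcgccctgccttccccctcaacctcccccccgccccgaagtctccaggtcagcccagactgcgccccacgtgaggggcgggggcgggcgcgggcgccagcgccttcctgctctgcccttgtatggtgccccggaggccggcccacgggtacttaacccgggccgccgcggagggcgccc
DUSP8: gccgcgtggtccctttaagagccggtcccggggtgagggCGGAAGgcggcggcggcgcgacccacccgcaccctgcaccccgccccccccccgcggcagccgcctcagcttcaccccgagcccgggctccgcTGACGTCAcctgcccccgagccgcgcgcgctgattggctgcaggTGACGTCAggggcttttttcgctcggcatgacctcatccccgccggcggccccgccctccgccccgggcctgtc

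The full CRE is bound by CREB and ATF factors and was found in 1.65% of 35116 RefSeq promoters. DUSP1 held 1, at 125 bases before the start, inside the peaks of both lists, and 2 of its 4 TGACG matches overlap it. DUSP8 held 2, at 118 and 74 bases before the start, and lay outside the peaks of both lists. TGACG was found in 21.2% of promoters. ETS motifs, which factors downstream of ERK bind, stood 62 bases before the start of DUSP6, inside the peaks of both lists, and 211 bases before that of DUSP8, and in 16.5% of promoters. No window held TGANTCA (AP-1), found in 6.57% of promoters, or a CArG box (serum response factor), found in 1.16%. GGGCGG, an SP-family motif, was found in 9 of the 10 windows and in 42.6% of promoters. Promoters with a full CRE lay under a peak in 61.8% of cases in the drug list and 71.5% in the control list, and all promoters in 30.3% of cases in the drug list and 38.2% in the control list. The promoters of DUSP2 and DUSP8, genes without a start-site peak, had G and C shares of 74.0% and 76.8%. These stood against 74.4% for DUSP1, 57.2% for DUSP6 and a median of 58.0% over all promoters. DUSP9 and DUSP10 each had a further window outside the peaks of both lists, at 76.4% for DUSP9 and 55.2% for DUSP10.

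Drug and control peaks were matched by position, with at least 1 shared base. Of the 33 drug peaks at DUSP genes, 22 had a control partner (66.7%, exact 95% interval 48.2 to 82.0%), against 70.7% of all drug peaks. Of the 48 control peaks at DUSP genes, 20 (41.7%, 27.6 to 56.8%) were overlapped by a drug peak, against 40.1% of all control peaks. Both shares lay near those of the whole lists. At promoters, 8 of 10 control peaks were overlapped, against 74.4% of all control promoter peaks. In other classes 12 of 38 were overlapped, against 31.6%. All control peaks were also ranked by score and divided into deciles, separately for promoter and other peaks. The overlapped shares of the deciles that held the 48 DUSP peaks summed to 19.3 peaks, beside the 20 counted. The intervals cover counting error only.

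**Figure D1:**
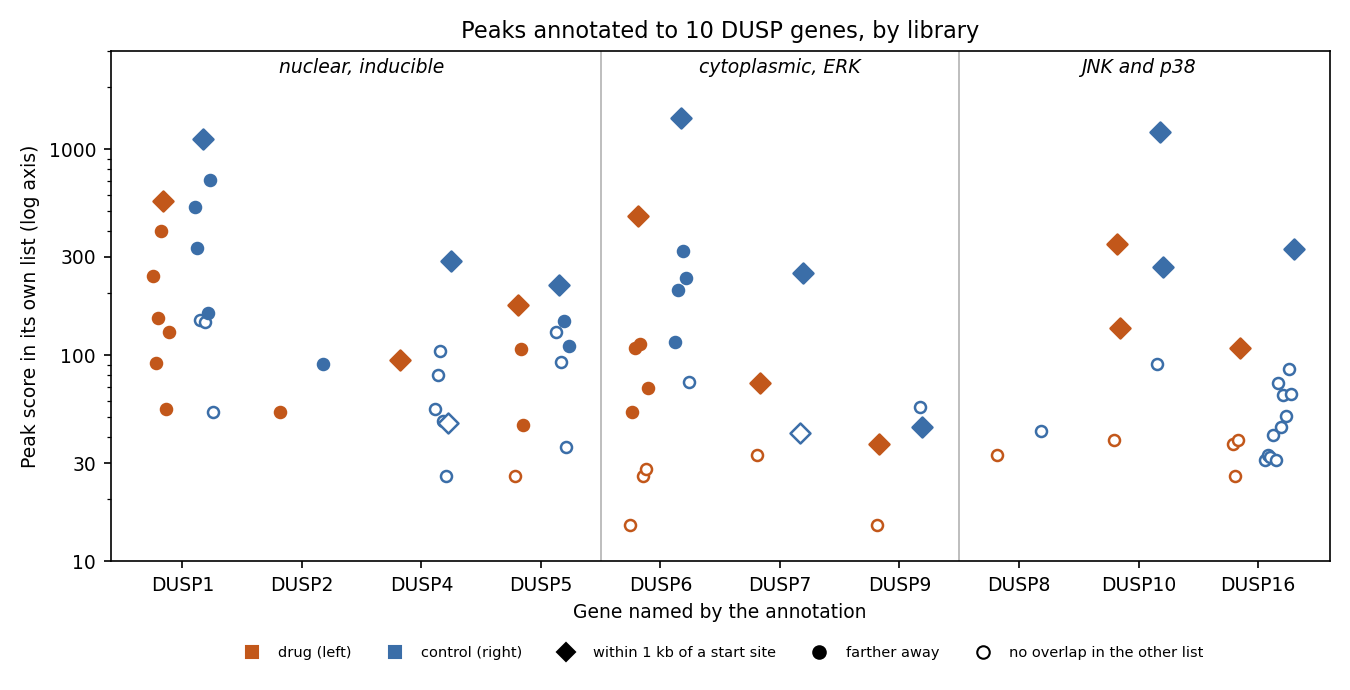
Scores (log axis) of the peaks annotated to each of the 10 DUSP genes, with the drug list left of the control list for each gene, and overlapped peaks marked apart from those found in 1 list. The start-site peaks of DUSP1, DUSP6 and DUSP10 scored 561, 473 and 346 in the drug list and 1121, 1409 and 1214 in the control list.

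Partners were counted within each phosphatase group, beside 70.7% of all drug peaks and 40.1% of all control peaks that had one. In the nuclear inducible group, 12 of 13 drug peaks had a control partner (92.3%, 64.0 to 99.8%), and 10 of 22 control peaks had a drug partner (45.5%, 24.4 to 67.8%). In the cytoplasmic ERK group, 7 of 12 drug peaks (58.3%, 27.7 to 84.8%) and 7 of 10 control peaks (70.0%, 34.8 to 93.3%) had partners. In the JNK and p38 group the counts were 3 of 8 drug peaks (37.5%, 8.52 to 75.5%) and 3 of 16 control peaks (18.8%, 4.05 to 45.6%). Over the nuclear, cytoplasmic and JNK and p38 groups, the overlapped shares of their control peaks' deciles summed to 9.66, 5.32 and 4.30 peaks. These lay beside the 10, 7 and 3 counted. The intervals of the nuclear and cytoplasmic groups overlapped in each list, and peaks of 1 gene are not independent of each other. These counts rest on weak peaks in part, since at a score of at least 50 the cytoplasmic group kept 6 drug peaks and the JNK and p38 group 3 drug and 9 control peaks. With the control list shortened to the length of the drug list, DUSP genes had 33 drug and 29 control peaks.

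Where a control peak was overlapped, its drug score was placed among those of other overlapped control peaks of the same class, promoter or other. These comparisons were used: the decile of control score that held the peak, and the 200 peaks nearest to it in control score, a set chosen after the data were seen. A percentile of 50 is the middle of such peaks. Over the 20 overlapped DUSP peaks, the median percentile was 61.4 in the deciles and 61.8 among the nearest 200, with 14 above 50 and 4 above 90 in each. All 4 belonged to the nuclear group, at DUSP1 and DUSP5. This did not hold under every alternative setting of score, list length or overlap given below. The second DUSP10 promoter peak and the DUSP6 CpG island peak each reached 99.3, and the DUSP5 peak 14.8 kb downstream fell to 83.9. In the deciles the medians were 61.4 over 10 peaks of the nuclear group, 42.1 over 7 of the cytoplasmic group and 75.7 over 3 of the JNK and p38 group. Among the nearest 200 they were 72.5 for the nuclear group, 62.5 for the cytoplasmic group and 55.2 for the JNK and p38 group. The order of the groups thus changed with the comparison, the JNK and p38 group being highest in the deciles and lowest among the nearest 200. The differences between the groups were not tested. Where a percentile is given below without its comparison, it is the one among the nearest 200.

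**Figure D2:**
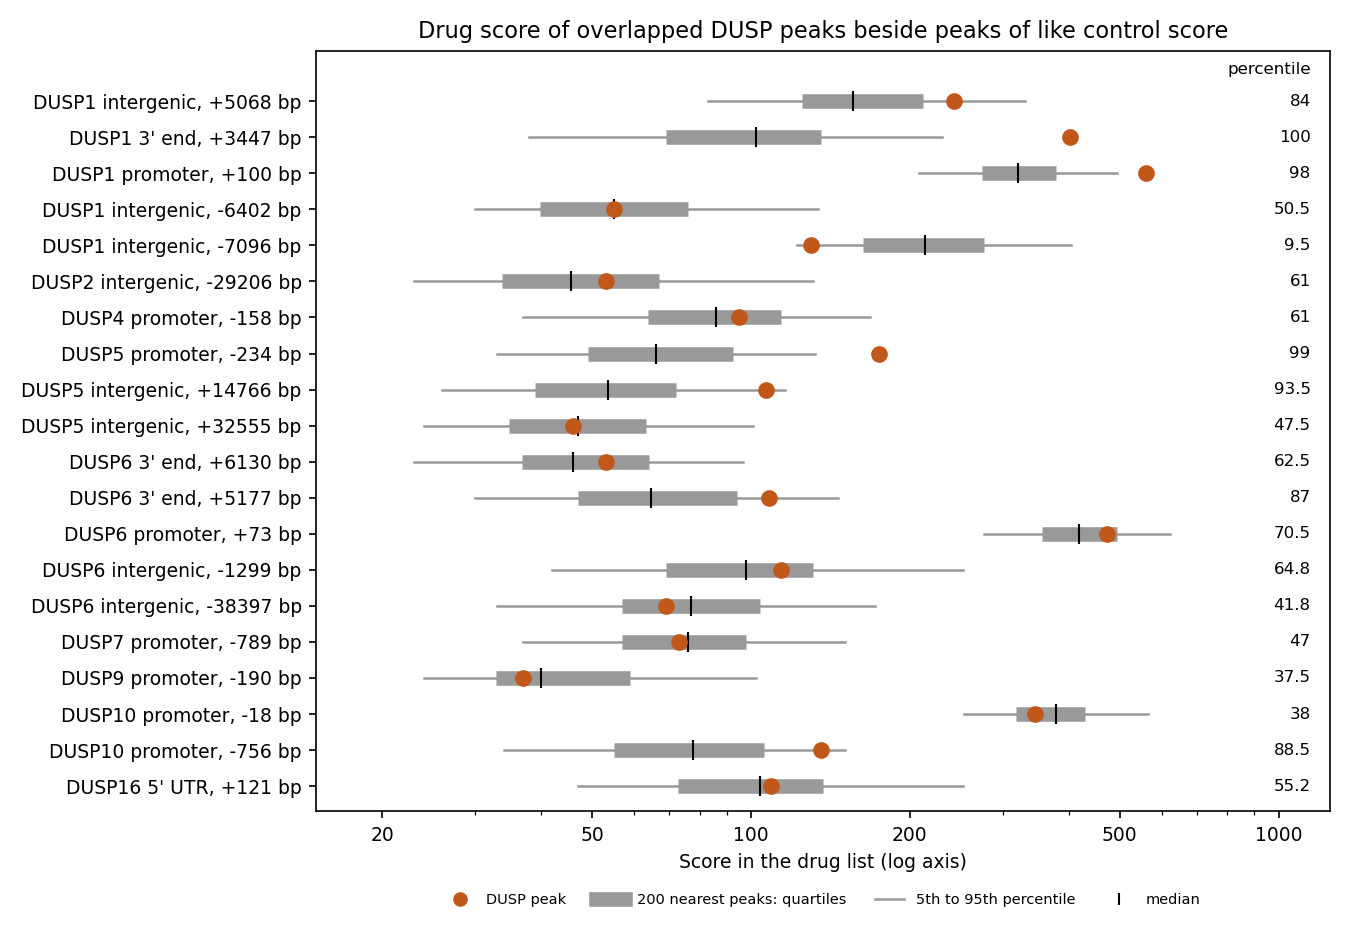
Drug score (log axis) of each of the 20 overlapped DUSP peaks (points), labelled by gene, class and distance of the control peak from the start site, with the median, quartiles and 5th to 95th percentile of drug scores of the 200 overlapped control peaks nearest in control score. The DUSP1 promoter, the DUSP1 3' end and the DUSP5 promoter lie beyond the 95th percentile of their neighbours, and the DUSP1 peak 7.10 kb upstream lies low in its range, at the 9.50 percentile.

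DUSP1 encodes a nuclear phosphatase of p38, JNK and ERK and is a textbook immediate-early gene. It lies at chr5:172768096-172771195 (hg38, minus strand, 3.10 kb) and had 7 drug and 8 control peaks. Its promoter peak scored 561 in the drug list (chr5:172770912-172771408, 497 bp) and 1121 in the control list (chr5:172770729-172771461, 733 bp). It ranked 853 in the drug list, in the top 2.91%, and 1920 in the control list, in the top 3.85%. Its drug score stood at the 98.0 percentile of its 200 neighbours, with 4 of them above it and a neighbour median of 320, and at the 98.7 percentile of its decile.

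At the 3' end of DUSP1, in the transcription termination class, the peak scored 402 in the drug list (chr5:172767417-172767936, 520 bp) and 330 in the control list (chr5:172767518-172767978, 461 bp). Its drug score was above that of each of its 200 neighbours, whose median was 102, and only 2 of the 3216 peaks of its decile scored higher. Just downstream, a control peak of 1967 bp that scored 522 was overlapped in part by 3 separate drug peaks, scoring 242, 92 and 151. They shared 776, 209 and 333 bp with it. The upstream peaks stood lower among their neighbours. The peak 7.10 kb upstream scored 130 in the drug list and 712 in the control list, with 181 of its 200 neighbours above it, and stood at the 26.8 percentile of its decile. The peak 6.40 kb upstream scored 55 in the drug list and 160 in the control list, at the 50.5 percentile, or at 17.9 in its decile when only peaks scoring at least 50 were kept. The remaining 3 control peaks, scoring 149 in exon 4, 145 at a CpG island upstream and 53 farther upstream, had no drug partner.

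DUSP5 encodes a nuclear phosphatase specific for ERK, at chr10:110497907-110511533. Its promoter peak scored 175 in the drug list (chr10:110497689-110497969, 281 bp) and 218 in the control list (chr10:110497403-110497944, 542 bp). It ranked in the top 19.2% of the drug list and the top 25.0% of the control list. Its drug score stood at the 99.0 percentile of its 200 neighbours, whose median was 66.0, and 10 of the 719 peaks of its decile lay above it. A peak 14.8 kb downstream of the start scored 107 in the drug list and 146 in the control list, at the 93.5 percentile. A second, at a CpG island 32.6 kb downstream, scored 46 in the drug list and 111 in the control list, at the 47.5 percentile. DUSP5 also had 1 drug peak without a control partner, which scored 26 over an Alu repeat, and 3 control peaks without a drug partner, scoring 36, 93 and 129. The genome holds copies related to DUSP5 and DUSP8 that RefSeq lists as pseudogenes, and reads of near-identical stretches can be placed at either, so the values of these 2 genes are uncertain to that extent.

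DUSP4, a nuclear phosphatase of ERK and JNK on chromosome 8, had 1 drug peak and 7 control peaks. The shared peak was that of the promoter, scoring 95 in the drug list and 287 in the control list, at the 61.0 percentile. Of its 6 control peaks without a drug partner, 3 lay in intron 1, 2 in the 3' UTR and 1 at an inner promoter, with scores of 26 to 105. In the deciles of control score that held them, 4.47 to 29.2% of peaks were overlapped. DUSP2, a nuclear phosphatase best known in lymphocytes, had no peak within 5 kb of the gene in either list. Its sole peak lay 29.2 kb upstream of the start and scored 53 in the drug list and 91 in the control list. It stood at the 61.0 percentile, but at 15.3 in its decile when only peaks scoring at least 50 were kept.

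DUSP6 encodes the cytoplasmic ERK phosphatase that ERK signalling itself induces, at chr12:89347235-89352501. It had 8 drug and 6 control peaks, the most of any DUSP gene in the drug list, and 0.726% of the protein-coding genes with a drug peak had as many. Its promoter peak scored 473 in the drug list (chr12:89352084-89353061, 978 bp) and 1409 in the control list (chr12:89351993-89352864, 872 bp). The drug score stood at the 70.5 percentile of the 200 neighbours and at the 40.6 percentile of its decile, so it was not placed firmly above or below the middle. A peak at a CpG island upstream scored 114 in the drug list and 320 in the control list. The larger of 2 peaks at the 3' end scored 108 in the drug list and 207 in the control list, at the 87.0 percentile. The smaller scored 53 in the drug list and 116 in the control list. A distal peak 38.4 kb upstream scored 69 in the drug list and 236 in the control list. The 3 drug peaks of DUSP6 without a control partner were weak, at scores of 15, 26 and 28, and each had the smallest width of 200 bp.

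DUSP7 and DUSP9, the other two cytoplasmic ERK phosphatases, had weaker promoter peaks. The DUSP7 promoter peak scored 73 in the drug list and 251 in the control list, at the 47.0 percentile. A second DUSP7 promoter peak, nearer the start, scored 42 in the control list and had no drug partner. The DUSP9 promoter peak scored 37 in the drug list and 45 in the control list, at the 37.5 percentile, and the peaks shared 91 bp. In the deciles, the promoter percentiles were 98.7, 98.5 and 61.7 for DUSP1, DUSP5 and DUSP4 of the nuclear group, and 40.6, 39.3 and 42.1 for DUSP6, DUSP7 and DUSP9 of the cytoplasmic group, so that these ranges did not overlap. Among the nearest 200 they ran between 61.0 and 99.0 in the nuclear group and between 37.5 and 70.5 in the cytoplasmic group, and overlapped. The 70.5 was that of DUSP6, whose control score of 1409 lay near the lower end of its decile, 1235 to 15779. Each group has 3 genes here, and the difference was not tested.

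DUSP10, a phosphatase of JNK and p38 at chr1:221701424-221742089, had a promoter peak that scored 346 in the drug list and 1214 in the control list. In drug score 124 of its 200 neighbours lay above it, so that it was below their middle, while it stood at the 69.3 percentile of its decile. A second promoter peak, 0.756 kb upstream, scored 136 in the drug list and 267 in the control list, at the 88.5 percentile. DUSP16, which acts on JNK and p38 and is the longest gene here at 89.6 kb, had 4 drug and 12 control peaks. Its start-site peak scored 109 in the drug list and 328 in the control list, at the 55.2 percentile of the 200 neighbours and the 75.7 percentile of its decile. The other 11 control peaks, 10 in introns and 1 in an exon, with scores of 31 to 86, had no drug partner, and in their deciles 5.98 to 29.2% of peaks were overlapped. The 3 other drug peaks of DUSP16, scoring 26, 37 and 39, lay elsewhere in the introns. DUSP8, an inducible phosphatase of JNK and p38, had 1 peak in each list, in intron 1 with a score of 33 in the drug list and in intron 3 with a score of 43 in the control list, and these did not meet.

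**Figure D3:**
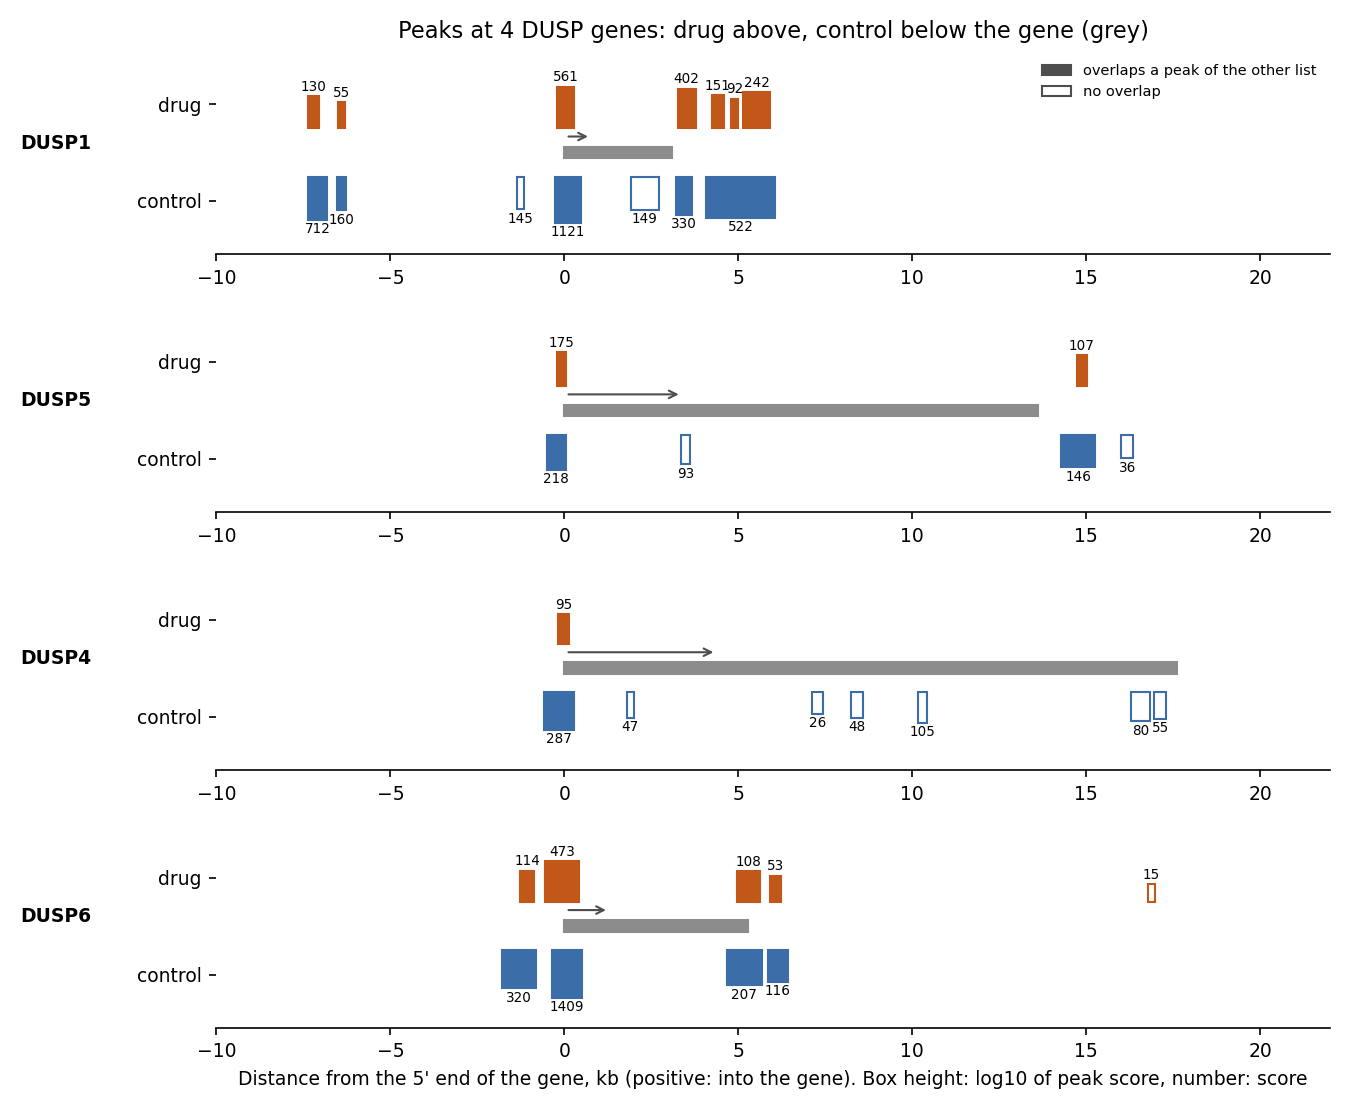
Peaks along DUSP1, DUSP5, DUSP4 and DUSP6, drug list above control list, against distance from the start site in kb, with boxes as wide as the peaks and as high as their scores (log scale). At DUSP1 the drug peaks gather at the promoter, the 3' end and just downstream, where 3 drug peaks share 1 control peak.

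By class, none of the 16 intron peaks of DUSP genes in the control list was overlapped, against 24.7% of all control intron peaks. DUSP16 held 10 of these 16. The 16 scored 26 to 105, in deciles of control score where 4.47 to 29.2% of peaks were overlapped. Of 14 intergenic control peaks 8 were overlapped, against 37.5% of all. They scored 36 to 712, in deciles where 5.98 to 99.0% of peaks were overlapped. All 3 peaks at 3' ends were overlapped, against 30.9% of all in that class. They scored 116 to 330, in deciles where 48.3 to 80.4% of peaks were overlapped. The shares of whole classes take no account of score. In the drug list 17 of 33 DUSP peaks (51.5%) were intergenic, against 20.1% of the drug list, and 10 of the 17 had a control partner. In the control list 14 of 48 (29.2%) were intergenic, against 18.6% of the control list. The 11 drug peaks without a control partner scored 15 to 39, and 8 of them had the smallest width. The 28 control peaks without a drug partner scored 26 to 149.

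Widths followed the shorter drug peaks of the whole list, with 3 exceptions. Of 19 DUSP pairs that matched 1 to 1, the drug peak was wider in 3 (15.8%), against 9.05% of all such pairs. They were the DUSP1 3' end at 520 bp in the drug list and 461 bp in the control list, the DUSP6 promoter at 978 bp in the drug list and 872 bp in the control list, and the DUSP9 promoter at 349 bp in the drug list and 213 bp in the control list. When peaks within 500 bp were matched or neighbours within 1 kb were joined, 1 wider pair was left. Over the 19 pairs the median width was 331 bp in the drug list and 544 bp in the control list.

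**Figure D4:**
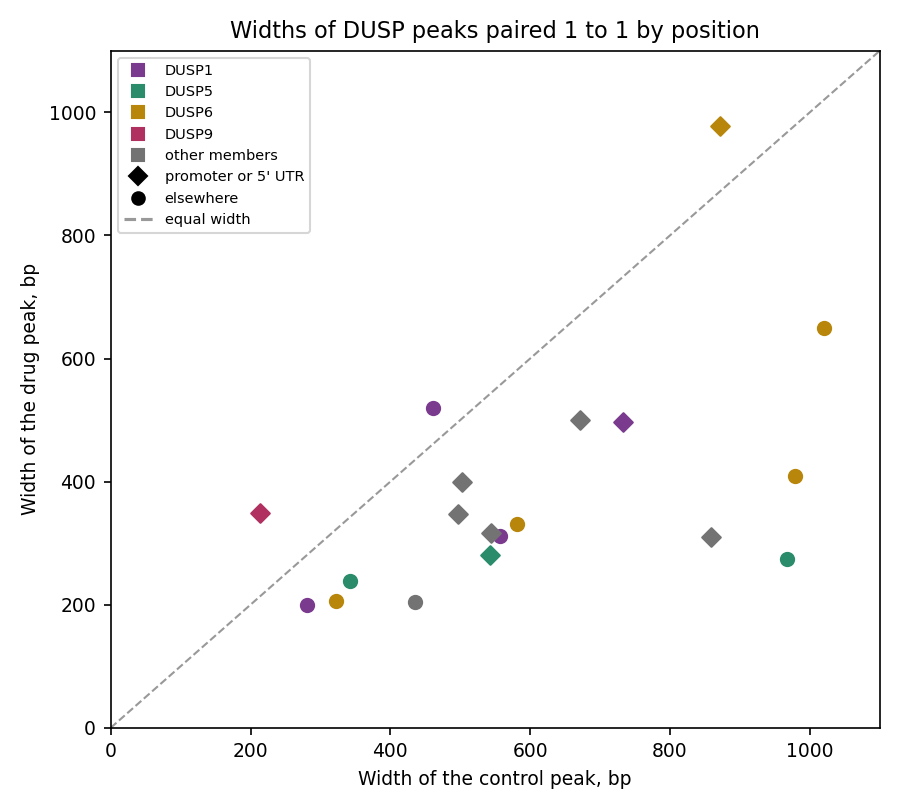
Width of the drug peak against width of the control peak, both in bp, for the 19 DUSP peak pairs that matched 1 to 1, with the line of equal width. Only the DUSP1 3' end, the DUSP6 promoter and the DUSP9 promoter lie above the line.

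Other genes of the pathways gave a scale for the DUSP promoters. Of 12 genes for RAS, RAF, MEK and ERK, 10 had a promoter peak in the drug list and 11 in the control list, and the median percentile of the overlapped ones among their 200 neighbours was 39.9. ARAF, a RAF kinase, scored 509 in the drug list and 1761 in the control list. Of 7 genes of the SPRY and SPRED families, feedback inhibitors of ERK signalling, 4 had a promoter peak in each list, with a median percentile of 26.0 over the 3 overlapped. SPRY4 scored 120 in the drug list and had no control promoter peak under its name, but a control peak under another name overlapped its drug peak. SPRY2 scored 106 in the drug list and 467 in the control list. Of 11 genes for JNK, p38 and their activating kinases, 7 had a promoter peak in the drug list and 6 in the control list, with a median of 34.5. MAP2K3, an activator of p38, scored 364 in the drug list and 874 in the control list, at the 96.5 percentile. Of 17 atypical dual-specificity phosphatases, which lack the MAP kinase binding domain, 7 had a promoter peak in each list, with a median of 32.4. STYX, a catalytically inactive member, scored 514 in the drug list and 1633 in the control list, at the 59.8 percentile. Of 14 ERK-induced early genes, 10 had one in each list, with a median of 43.8. JUN, an AP-1 subunit, scored 1311 in the drug list and 3091 in the control list, at the 91.5 percentile. FOS, its partner, scored 639 in the drug list and 1484 in the control list, at the 93.2 percentile. The strongest control promoter peaks without a drug partner in these lists were those of MAPK9 at 135, SPRED2 at 93, DUSP14 at 73, EGR3 at 47 and MAPK3 at 45. MAPK9 also had a drug promoter peak, scoring 46, that no control peak overlapped. SPRED2, DUSP14, EGR3 and MAPK3 had no drug promoter peak.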

How the data were processed

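CUT&Tag peaks of PLC8024 cells were compared between 1 drug and 1 control library. Per the file headers, the authors annotated MACS2 narrow peaks of each library, with no pooling, by HOMER annotatePeaks.pl against hg38. The deposited score of each peak is a whole number from the peak caller, at least 13 in both lists. The aligner, tool versions, peak caller settings and background library are not given in the sources used here, and 1 emptied line of the control list was left out. The deposited distance to the start site runs from the peak centre.

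Genes were taken by the deposited nearest gene name. All 10 DUSP genes are named, and from each pathway list up to 2 genes with the highest drug promoter score and up to 2 with the highest control score at a promoter without drug overlap were eligible. The members and lists were chosen with earlier results of these data known. Overlap needed 1 shared base. Intervals are exact Clopper-Pearson at 95%. Deciles of control score were set apart for promoter and other peaks. Only the matching by 1 shared base and the sizes of the deciles were checked on simulated peaks. Alternatives were a score of at least 20 or 50, a control list of equal length, overlap of 50% of the shorter peak, a slack of 500 bp, a start-site window of 1 kb, merging within 1 kb, and genes by position within 5 kb. The 200 nearest peaks were added after the data were seen. Tools were Python 3.11.15, pandas 2.3.3, numpy 2.4.6, scipy 1.17.1 and matplotlib 3.10.9.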

Additional observations from a re-analysis of the deposited data

How the results depend on the processing

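No paired analysis was possible because each condition had 1 library. Of the recomputed counts and shares, 104 stayed within 1.5 times the reported count, or within the exact 95% interval of the reported share, and 13 moved farther. At a score of at least 50, DUSP genes had 20 drug peaks, the cytoplasmic ERK group 6 drug peaks, and the JNK and p38 group 3 drug and 9 control peaks. With a control list of equal length, DUSP genes had 33 drug and 29 control peaks and the JNK and p38 group 8 drug and 6 control peaks. In these counts the control list no longer held more, but in the nuclear group it still did, with 13 drug and 16 control peaks. The cytoplasmic group, with 12 drug and 10 control peaks as reported, had fewer drug than control peaks at a score of at least 50 (6 and 8) and by position (7 and 8). With 500 bp of slack, or with neighbours within 1 kb merged, 1 pair was wider in the drug list, and merging left the cytoplasmic group 6 control peaks. With any peak within 1 kb of a start site, 2 genes of the JNK and p38 group had a start-site peak in the drug list and 2 in the control list. With genes taken by position, the nuclear group had 8 drug peaks and the cytoplasmic group 7. Of the recomputed percentiles of single peaks, 57 fell outside the exact 95% interval of the reported value and 59 within it. Percentiles of single peaks ranged over the settings from 97.8 to 98.7 at the DUSP1 promoter, 98.3 to 100 at the DUSP1 3' end and 95.5 to 99.0 at the DUSP5 promoter. Wider ranges were 15.3 to 62.5 at DUSP2, 17.9 to 54.2 at DUSP1 6.40 kb upstream, 4.92 to 26.8 at DUSP1 7.10 kb upstream, 44.9 to 90.8 just downstream of DUSP1, 16.9 to 87.6 at the smaller DUSP6 3' end peak, 54.5 to 99.3 at the DUSP6 CpG island, 35.4 to 70.5 at the DUSP6 promoter and 37.0 to 75.7 at DUSP16. The second DUSP10 promoter peak ranged from 84.6 to 99.3, and the DUSP5 peak 14.8 kb downstream from 83.9 to 93.5. At the main DUSP10 promoter peak the highest was 69.3, with 124 of 200 neighbours above it in the other comparison. The cause of these shifts was not tested. Limits are the single library per condition, the unknown depth, the unnamed antibody and scores that depend on depth.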

Other observations

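DUSP5P1, a pseudogene related to DUSP5 on chromosome 1, carried a promoter peak in both lists. It scored 289 in the drug list (chr1:228644738-228645074, 337 bp, rank 2921) and 188 in the control list (chr1:228644716-228645154, 439 bp, rank 13850). Its drug score was above that of each of the 200 overlapped promoter peaks nearest in control score, whose median was 60.5. Among ERK-induced early genes, the ETV4 promoter scored 232 in the drug list and 299 in the control list, at the 99.5 percentile. The CCND1 promoter scored 115 in the drug list and 626 in the control list, at the 10.0 percentile. The EGR1 promoter scored 440 in the drug list and 1135 in the control list, at the 87.0 percentile. ETV4, CCND1, EGR1 and DUSP5P1 were picked out after their values were seen.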
